A study of Mus musculus with 8 samples.

Results

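The miRNAs described here are the mouse entries of the registry with numbers of 1000 and above, which were catalogued late, when deep sequencing of small RNA brought many scarce or unusual molecules into the list. They were taken as every capture probe of the array whose name starts with mmu-miR- and a number of at least 1000, with miR-1193 left out. This gave 244 probes of the 1034 that carry a mouse miRNA name, with numbers between 1186 and 3475. The highest number below the limit was 883, so no probe stood near it. The RNA came from amygdala of adult male C57/Bl6J mice in 2 groups of 4 animals, fear conditioned and home cage, with 1 array per animal. The fear conditioned mice received 5 presentations of a 6 kHz tone paired with a 0.6 mA shock and were killed 30 min afterwards, while the home cage mice had neither tone nor shock. Tissue was taken from both hemispheres with a 1 mm punch, and the sample's own RNA carried the dye Hy3. No mouse in either group carried a stated transgene or mutation.

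A miRNA is a short RNA cut from a hairpin precursor, first by Drosha with Dgcr8 in the nucleus and then by Dicer, and its bases 2 to 8, the seed, lead it to target mRNAs. Either arm of the hairpin can give a mature miRNA, and in the names of this array an asterisk marks the arm held to be the scarcer one. Some late entries are made by other routes, from short introns, snoRNAs or tRNAs, and several of them were later judged to be fragments of tRNA or other structural RNA. The amygdala is the brain region needed for learned fear of a tone, and some members are known there or in nearby brain tissue, such as miR-1298 and miR-1264 in introns of Htr2c, the gene of a serotonin receptor.

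The sequences that the results turn on are shown first, as RefSeq gives them on the mouse build GRCm38.p6, with the seed in capitals. RefSeq held a mature sequence under exactly the probe's name for 94 of the 244 probes. The first is the member that passed the test, the next ones had the highest signal or the largest spread among the members that could be matched, and the last one carries the seed of the let-7 family. The locus of miR-1900 lies at chr9:21032261-21032282 on the minus strand, within the span of Icam5, which encodes a cell adhesion protein of forebrain neurons. That of miR-1983 lies at chr13:21896930-21896950 on the minus strand, where the table names no other gene. Those of miR-1192 (chr19:23149450-23149471, plus strand) and miR-1264-3p (chrX:147010655-147010676, plus strand) lie within Klf9 and Htr2c. The locus of miR-1961 lies at chr5:92788465-92788481 on the minus strand, within Shroom3. Exon and intron were not looked up here, nor was the strand of the genes named. A locus within a gene's span may therefore lie on the strand opposite to it.
miR-1900: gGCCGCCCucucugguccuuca
miR-1983: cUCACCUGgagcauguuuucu
miR-1264-3p: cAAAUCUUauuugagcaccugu
miR-1192: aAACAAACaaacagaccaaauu
miR-1961: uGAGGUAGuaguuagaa

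For miR-1298 and miR-3072 the array names the arms with and without an asterisk, and RefSeq names them by their end, so both arms are shown and which one each probe reads is not given. The arms of miR-1298 lie within Htr2c (chrX:147064918-147064939 and chrX:147064970-147064991, plus strand). Those of miR-3072 (chr12:109747893-109747914 and chr12:109747928-109747949, plus strand) lie within Mirg, a noncoding RNA of the imprinted Dlk1-Dio3 region of chromosome 12.
miR-1298-5p: uUCAUUCGgcuguccagaugua
miR-1298-3p: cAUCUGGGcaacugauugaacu
miR-3072-5p: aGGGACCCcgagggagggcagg
miR-3072-3p: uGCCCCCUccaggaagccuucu

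Seeds were mostly not shared. Of the 94 matched members, miR-2861 and miR-3091-3p had the seed GGGCCUG in common, and 4 held the seed of a RefSeq mouse miRNA numbered under 1000 or of let-7. These were miR-1192 with the seed of miR-495-3p, miR-1928 with that of miR-221-3p and miR-222-3p, miR-1983 with that of miR-412-3p and miR-1961 with that of let-7 and miR-98-5p. All but miR-1928, which was detected on no array, were detected on all 8. With let-7g and let-7i, miR-1961 shared its first 13 bases of 17. The median share of G and C was 54.5% in the matched members and 50% in 180 matched mouse miRNAs numbered under 1000. Over the matched members, the correlation of that share with signal was a Spearman rho of -0.065, which is across probes and not across samples.

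All values below are the normalised Hy3 signal on a log2 scale unless the deposited log ratio is named, which is the authors' own ratio of each sample to a pool of all animals' RNA labelled with Hy5. It was taken as log2 of sample over pool, although neither its log base nor its direction is stated. The array holds 12312 spots, with 4 for most probes. With 4 arrays a group, precision is set by how many animals were used. The neuronal markers miR-124, miR-9, miR-128, miR-138 and miR-132 were detected on all 8 arrays, and so were the liver marker miR-122, at 6.56, and the muscle markers miR-1 and miR-206, at 6.75 and 6.52. Of these, miR-124 stood at 14.36. The muscle markers miR-133a and miR-208a-3p were detected on 3 arrays and 1 array, and 6 of 11 muscle probes on none. Also detected on none were miR-122* and 2 of 12 neuronal probes (miR-128-1* and miR-128-2*). Home cage mouse 1 stood apart. Background exceeded signal at 508 of its spots and at no more than 10 on any other array. Its mean correlation with the remaining arrays was 0.977, and every other array had at least 0.99. Each array was a slide of its own, so slide and animal cannot be told apart. Nothing in the labels names batches, and the p-values measure the spread between these animals.

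The share of probes detected was lower for the late-numbered miRNAs than for the earlier ones on every array. A probe counts as detected where it read above the 95th percentile of spots printed as negative controls on the same array, which belong to 7 probes. Each array had 18 to 27 usable spots of these. The limit was 7.23 in home cage mouse 1 and 6.17 to 6.52 on the other arrays. It applies before scaling and so is not on the scale of the normalised signals. On the fear conditioned arrays 42.6, 50, 47.1 and 46.3% of the 244 members were detected, and on the home cage arrays 38.5, 48.0, 48.8 and 39.3%. The groups overlapped, with means of 46.5 ± 3.04% in fear conditioned and 43.6 ± 5.46% in home cage mice (SD, n = 4 each). Over the 8 arrays the share was 45.1 ± 4.37% for the members and 64.1 ± 4.14% for the 770 mouse probes numbered under 1000 (SD, n = 8). The 57 probes for viral miRNAs, which uninfected mice should lack, gave 37.1 ± 5.26%, a level reached by probes with no known target in these mice. No test was made of these shares, since probes are not replicates.

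**Figure D1:**
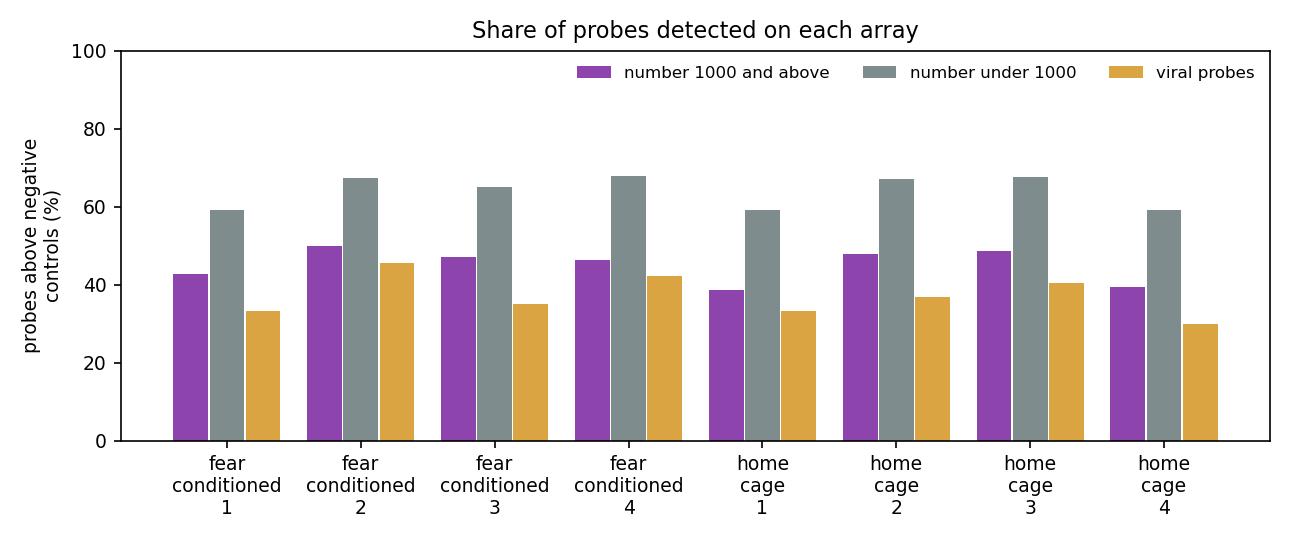
Percent of probes above the negative controls on each array, for the 244 mouse miRNA probes numbered 1000 and above, the 770 numbered under 1000 and the 57 viral probes, with the 4 fear conditioned mice left of the 4 home cage mice. On each array the late-numbered probes (38.5 to 50%) lie below the earlier ones (59.1 to 67.9%) and above the viral probes (29.8 to 45.6%).

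Detection on all 8 arrays held for 77 members (31.6%), against 390 of the probes numbered under 1000 (50.6%) and 14 viral probes (24.6%). On no array were 92 members (37.7%) detected, against 168 of the earlier probes (21.8%) and 27 viral probes (47.4%). Close to the limit, miR-1188*, miR-1934 and miR-3081* had the lowest signals among the members detected on all 8 arrays, at 6.55, 6.55 and 6.52. The members detected on 7 arrays with the highest signals were miR-1224*, miR-1929 and miR-3095-3p, at 6.88, 6.78 and 6.71. For miR-1224* the remaining array, home cage mouse 1, gave no value. In all 9 members lacked a value on 1 array and count as not detected there.

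The share differed over the registry numbers. Of 30 probes from miR-1186 to miR-1306, 14 were detected on all 8 arrays, and of 88 probes from miR-1839 to miR-1983, 33 were. Of the 112 probes from miR-3057 to miR-3113, the largest block, 24 were detected on all 8 arrays (21.4%) and 54 on none (48.2%), close to the viral probes. The blocks from miR-2136 to miR-2861 and from miR-3470 to miR-3475 held 7 probes each, of which 3 each were detected on all 8. Among probes with an asterisk 11 of 49 members were detected on all 8 arrays, and among those without one 66 of 195. For earlier numbers the counts were 87 of 268 and 303 of 502. Of 75 hairpins with a probe for each arm, 9 had both arms detected on all 8 arrays, 24 had 1 arm and 42 had neither. The 9 included miR-1298, miR-1264, miR-1839 and miR-1843.

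The median signal of the members was 6.42, against 6.62 for the probes numbered under 1000 and 6.38 for the viral probes. The difference of medians between members and earlier probes was -0.20 ± 0.020 (SD, n = 8) and ran between -0.17 and -0.24 on single arrays. Its size depends on the offset added after background correction, 50 here, and was -0.38 with an offset of 10. Home cage mouse 1 had the widest gap and fear conditioned mouse 2 the narrowest. The upper ends met: 7 members (2.87%) and 35 earlier probes (4.55%) had a signal over 10.

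**Figure D2:**
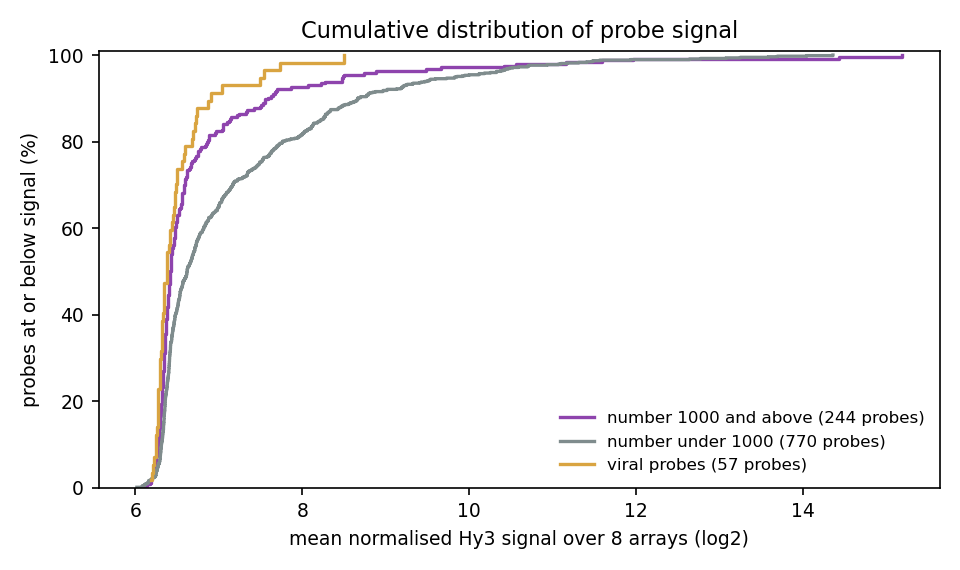
Cumulative percent of probes (vertical axis) at or below a given mean normalised Hy3 signal over the 8 arrays (log2, horizontal axis), for the members, the mouse probes numbered under 1000 and the viral probes. The members' line follows the viral probes at low signal (medians 6.42 and 6.38), lies left of the earlier miRNAs (6.62) and ends furthest to the right, at 15.18.

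Few members were bright, but these few included the brightest mouse probes of the array. A probe's brightness depends on its sequence as well as on its target, so the order below is one of signal and not of molecules. The highest mean signal of all 1034 mouse probes was that of the probe shared by miR-1937a and miR-1937b (15.18 ± 0.080, SD over 8 arrays), and the next highest that of the probe for miR-1937a alone (14.43 ± 0.13). The third was miR-124, the main neuronal miRNA, at 14.36. The miR-1937 entries are known as pieces of tRNA.

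The shared probe of miR-1937a and miR-1937b read 15.14, 15.15, 15.10 and 15.18 in fear conditioned mice, against 15.20, 15.25, 15.33 and 15.09 in home cage mice. The miR-1937a probe read 14.55, 14.51, 14.51 and 14.22 in fear conditioned mice, against 14.26, 14.44, 14.53 and 14.45 in home cage mice. For both probes the groups overlapped, and the differences of -0.07 (SE 0.050, limma adjusted p = 0.512) and 0.03 (SE 0.086, limma adjusted p = 0.886) did not pass. With arrays centred on their median the difference of the shared probe was 0.24. RefSeq gave no sequence under these names, and how far the probes of the 3 miR-1937 entries read each other's RNA was not tested.

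Next came miR-1983, which is also known as a piece of tRNA and whose sequence is shown above, at rank 11 of all mouse probes. It read 11.94, 11.95, 12.10 and 12.23 in fear conditioned mice, against 12.004, 11.87, 11.67 and 11.90 in home cage mice, with overlapping groups and a difference of 0.20 (SE 0.087, limma adjusted p = 0.363), which was 0.50 with arrays centred on their median. In the deposited log ratio its groups did not overlap, at -0.21, -0.27, -0.18 and -0.24 in fear conditioned mice, against -0.33, -0.29, -0.32 and -0.36 in home cage mice. The ratio difference was 0.10 (SE 0.049, limma adjusted p = 0.591), which did not pass.

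The other members over 10 were miR-2145 (11.59), miR-1937c (11.17), miR-1274a (10.56) and miR-1939 (10.42). The groups of miR-2145 overlapped, at 11.39 to 12.12 in fear conditioned and 11.31 to 11.68 in home cage mice. miR-1274a, a piece of lysine tRNA in human annotation, read 10.80, 10.59, 10.91 and 10.63 in fear conditioned mice, against 9.49, 10.69, 10.46 and 10.94 in home cage mice. Home cage mouse 1 alone was low, and the difference of 0.33 (SE 0.29, limma adjusted p = 0.617) was 0.03 without it. miR-1939 read 10.26, 10.25, 10.25 and 10.82 in fear conditioned mice, against 9.73, 10.77, 10.62 and 10.65 in home cage mice. Fear conditioned mouse 4 was high and home cage mouse 1 low. The difference of -0.05 (SE 0.25, limma adjusted p = 0.935) was -0.28 without home cage mouse 1 and 0.23 with arrays centred on their median.

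**Figure D3:**
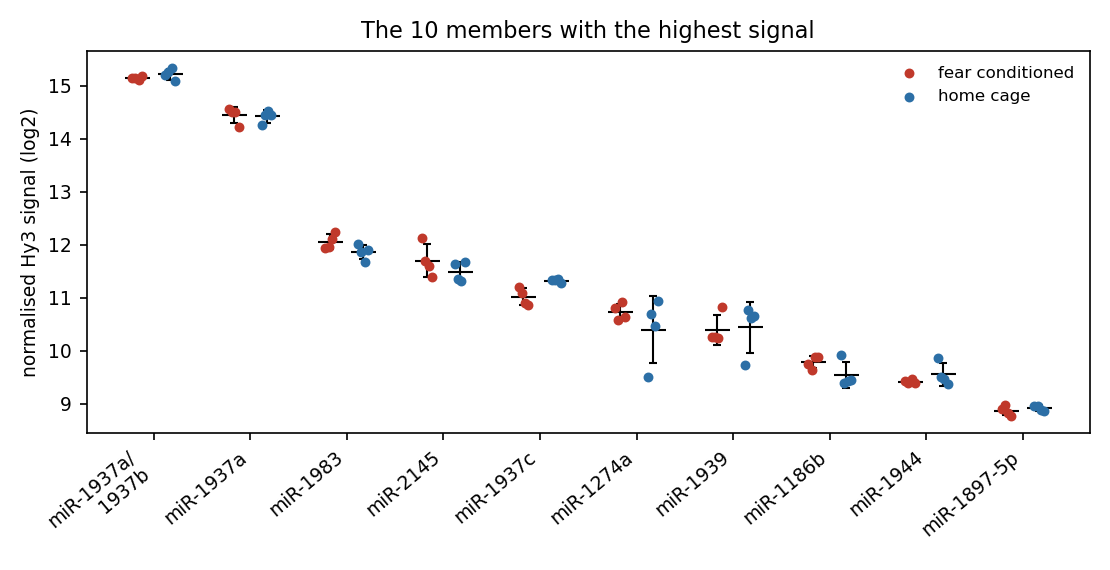
Normalised Hy3 signal (log2, vertical axis) of the 10 members with the highest mean signal, fear conditioned mice left of home cage mice, with 1 point per array, the group mean as a horizontal tick and the SD as a bar (n = 4 each). Only miR-1937c has groups that do not overlap, and home cage mouse 1 is the low point of miR-1274a (9.49) and of miR-1939 (9.73).

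Of 8 probes for entries made outside the standard route, 7 were detected on all 8 arrays, beside 31.6% of all members, with a median signal of 9.36, and 0 passed the test in either readout. The 7 were the probes of the miR-1937 entries, miR-1983, both arms of miR-1839, cut from a snoRNA, at 7.55 for the 3p arm and 7.22 for the 5p arm, and miR-1224, from a short intron, at 6.58. The eighth, miR-1224*, was detected on the 7 arrays that gave it a value. miR-1274a was not in this list. In the imprinted Dlk1-Dio3 region, which holds a large cluster of brain miRNAs, 12 probes were listed, for miR-1188, miR-1197, miR-1247, miR-3070a, miR-3070b, miR-3071 and miR-3072. Of these, 3 were detected on all 8 arrays (miR-1188*, miR-1247 and miR-3072) and 5 on none. The list lacked miR-1906, added after its values were seen, which has 1 of its 2 loci within Meg3 of the same region and was detected on 1 array. The probe for miR-1306, which comes from the Dgcr8 transcript itself, was detected on 3 arrays, at 6.41. Of 8 probes known as brain-expressed, 5 were detected on all 8 arrays, and both arms of miR-1251 were on at most 1.

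Of 6 probes for miRNAs from introns of Htr2c, 4 were detected on all 8 arrays, namely both arms of miR-1264 and both probes of miR-1298. miR-1912* was detected on 6 arrays, at 6.55, and miR-1912 on none. miR-1298 had the largest SD over the 8 arrays (0.48) of the members detected on all of them. It read 7.52, 7.79, 6.62 and 7.68 in fear conditioned mice, against 6.51, 6.98, 7.44 and 7.39 in home cage mice. Fear conditioned mouse 3 and home cage mouse 1 were low and the groups overlapped, with a difference of 0.33 (SE 0.30, limma adjusted p = 0.631). It was 0.57 without fear conditioned mouse 3 and 0.14 without home cage mouse 1. The deposited log ratio had its lowest values for miR-1298 on the same arrays, at -1.01 in fear conditioned mouse 3 and -0.36 in home cage mouse 1, within a range over the 8 arrays that reached 0.94. miR-1264-3p read 8.98, 8.87, 8.81 and 8.95 in fear conditioned mice, against 8.06, 8.68, 8.83 and 8.78 in home cage mice. Here home cage mouse 1 was low and fear conditioned mouse 3 was not set apart, and the difference of 0.31 (SE 0.16, limma adjusted p = 0.407) was 0.14 without home cage mouse 1.

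Htr2c is strongly expressed in choroid plexus, the tissue that makes cerebrospinal fluid, so markers of choroid plexus and the ependyma lining the ventricles stand beside these values. Of 12 marker probes, 7 were detected on all 8 arrays and 2 (miR-211* and miR-449a*) on none. Their summed linear signal was 3633, 4448, 1791 and 3653 in fear conditioned mice, against 1473, 2741, 3734 and 3349 in home cage mice. It was lowest in fear conditioned mouse 3 and home cage mouse 1, the arrays on which miR-1298 was low. miR-204 alone read 9.86, 10.03, 8.21 and 9.76 in fear conditioned mice, against 7.58, 9.01, 9.59 and 9.50 in home cage mice. The low sums were not confined to these markers. The summed signal of 7 blood cell probes was also lowest on the same arrays. Of these, miR-451 read 8.99 in fear conditioned mouse 3 and 8.96 in home cage mouse 1, against 9.39 to 10.27 elsewhere. The sum of 5 oligodendrocyte probes was lowest in home cage mouse 1 (1567), but not low in fear conditioned mouse 3 (2524). That of 12 neuronal probes was lowest in fear conditioned mouse 1. Fewer cells of a type and less RNA per cell cannot be told apart in punched tissue. The part of choroid plexus, ependyma or other cell types in the values of miR-1298 was not tested.

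**Figure D4:**
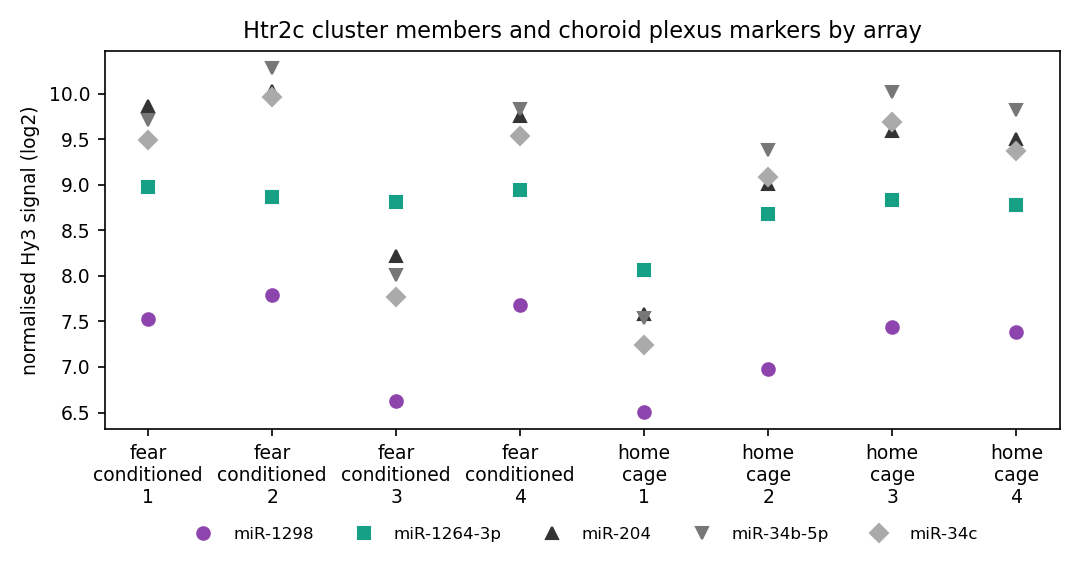
Normalised Hy3 signal (log2, vertical axis) on each array for miR-1298 and miR-1264-3p, from introns of Htr2c, and for the choroid plexus and ependyma markers miR-204, miR-34b-5p and miR-34c, with fear conditioned mice left of home cage mice. miR-1298 and the 3 markers are low in fear conditioned mouse 3 and home cage mouse 1. miR-1264-3p is low in home cage mouse 1 (8.06), and fear conditioned mouse 3 (8.81) is the lowest of its group by little.

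After fear conditioning 1 member passed the test in the Hy3 signal and 0 did in the deposited log ratio. The test was limma's moderated fit over all 1034 mouse probes, two-sided, with Benjamini-Hochberg adjustment, and 0.193% of all mouse probes passed in Hy3 and 0% in the ratio. In Hy3, 28 of 244 members had an unadjusted p under 0.05, which is 11.5% of them against 14.1% of all mouse probes. Of these, 11 were higher (4.51% of members, against 5.03% of all mouse probes) and 17 lower (6.97%, against 9.09%). The split was 17 higher and 10 lower with no background subtraction, 6 and 18 with flagged spots kept, 6 and 10 with arrays centred on their median, and 0 and 0 with centring on the spike-in probes. Under those settings 13.1, 12.5, 6.67 and 0.387% of all mouse probes had an unadjusted p under 0.05, in the same order. The groups did not overlap for 26 of the 235 members with values on every array (11.1%), against 9.47% of all mouse probes. The median difference was 0.0027 in the members and -0.0043 in all mouse probes. In the ratio, 20 members had an unadjusted p under 0.05 (8.20%, against 7.74% of all mouse probes), and the groups did not overlap for 12 of 232 (5.17%, against 5.43%). In both readouts the members' shares were near those of all mouse probes.

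The member that passed was miR-1900, and it fell. It read 7.36, 7.41, 7.42 and 7.45 in fear conditioned mice, against 7.69, 7.67, 7.79 and 7.69 in home cage mice. Every fear conditioned mouse was below every home cage mouse. The means were 7.41 ± 0.040 in fear conditioned and 7.71 ± 0.055 in home cage mice (SD, n = 4 each), a difference of -0.30 (SE 0.034, limma adjusted p = 0.0276). The call was lost without background subtraction (-0.20, adjusted p = 0.454), with arrays centred on their median (-0.098, adjusted p = 0.770) or on the spike-in probes (-0.17, adjusted p = 1.00), and on leaving out any 1 of 6 arrays (limma adjusted p between 0.0684 and 0.147). It held without fear conditioned mouse 4 and without home cage mouse 3. The deposited log ratio of miR-1900 stood at 0.10, 0.18, 0.25 and 0.48 in fear conditioned mice, against 0.01, -0.04, 0.10 and 0.21 in home cage mice. There the groups overlapped, and the difference was 0.18 (SE 0.088, limma adjusted p = 0.591), of the opposite sign. In its sequence above, the 11 bases cucugguccuu, from base 10 on, also occur in miR-673-5p, the longest run it shares with a mouse miRNA numbered under 1000.

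The other members named here did not pass. Among the members detected on all 8 arrays, 7 (9.09%) had every fear conditioned value below every home cage value in Hy3. Of all mouse probes so detected, 6.67% did. The next after miR-1900 by unadjusted p was miR-3072, of the Dlk1-Dio3 region. It read 7.02, 6.99, 6.96 and 6.95 in fear conditioned mice, against 7.10, 7.12, 7.13 and 7.12 in home cage mice, a difference of -0.14 (SE 0.023, limma adjusted p = 0.102). The Hy3 difference was -0.013 with arrays centred on their median and -0.085 with centring on the spike-in probes. Its log ratio differed the same way as Hy3, by -0.15, with overlapping groups. miR-3102 averaged 7.08 ± 0.020 in fear conditioned and 7.21 ± 0.054 in home cage mice (SD, n = 4 each), and its log ratio difference was -0.12, though the Hy3 difference was 0.03 with arrays centred on their median. miR-1937c, the tRNA piece, read 11.21, 11.08, 10.89 and 10.87 in fear conditioned mice, against 11.33, 11.33, 11.34 and 11.27 in home cage mice. Its Hy3 difference was -0.31 (SE 0.074, limma adjusted p = 0.152), and its log ratio difference was 0.08, of the opposite sign. Centred on the array median the Hy3 difference was -0.0030, and centred on the spike-in probes it was -0.074. miR-1952, an entry of 17 bases, averaged 7.35 ± 0.049 in fear conditioned and 7.49 ± 0.066 in home cage mice (SD, n = 4 each), with a log ratio difference of 0.0020, and its Hy3 difference of -0.14 was 0.04 with arrays centred on their median.

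On the other side 3 members detected on all 8 arrays (3.9%) had every fear conditioned value above every home cage value in Hy3. Of all mouse probes so detected, 4.17% did. miR-1192, whose locus lies within Klf9, the gene of a transcription factor induced by glucocorticoids, read 8.69, 8.57, 8.73 and 8.51 in fear conditioned mice, against 8.33, 8.26, 8.44 and 8.38 in home cage mice. The difference was 0.27 (SE 0.058, limma adjusted p = 0.134), and the log ratio differed by 0.06, with overlapping groups. miR-1957 averaged 6.66 ± 0.065 in fear conditioned and 6.51 ± 0.031 in home cage mice (SD, n = 4 each), a difference of 0.15. miR-3066 averaged 6.64 ± 0.036 in fear conditioned and 6.53 ± 0.050 in home cage mice (SD, n = 4 each), a difference of 0.11 that was 0.063 with flagged spots kept and 0.034 with spike-in centring. Its log ratio difference was 0.21, with overlapping groups, and 0.14 without fear conditioned mouse 4.

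**Figure D5:**
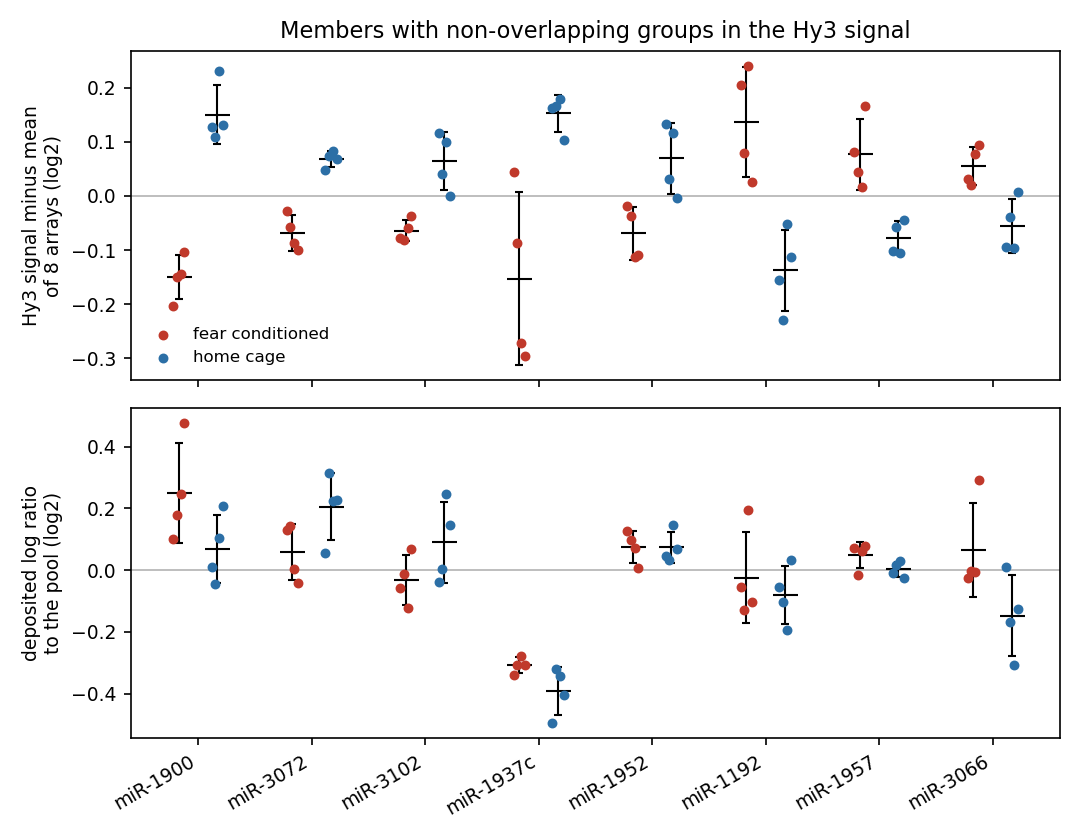
The 8 members detected on all arrays that are described above for Hy3 groups that do not overlap, with fear conditioned mice left of home cage mice, 1 point per array, the group mean as a tick and the SD as a bar (n = 4 each). The upper panel gives the Hy3 signal minus its mean over the 8 arrays (log2) and the lower panel the deposited log ratio to the pool (taken as log2). miR-1900, miR-1937c and miR-1952 are lower after conditioning in the upper panel and not in the lower one. With arrays centred on their median the Hy3 differences of miR-3102 and miR-1952 turn to 0.03 and 0.04.

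In the deposited log ratio the smallest unadjusted p among members detected on all 8 arrays was that of miR-3103*. Its ratio stood at 0.24, 0.23, 0.32 and 0.45 in fear conditioned mice, against 0.02, -0.06, -0.12 and 0.14 in home cage mice. The groups did not overlap, and the difference was 0.31 (SE 0.074, limma adjusted p = 0.584). In Hy3 it differed by 0.17 in the same direction, with overlapping groups (limma adjusted p = 0.301). miR-1934 and miR-1895 had non-overlapping groups with higher ratios in fear conditioned mice, by 0.14 and 0.11, as had miR-1983 above. In Hy3 the groups of miR-1934 did not overlap either, in the opposite direction, with a difference of -0.07 (SE 0.021) that did not pass. Those of miR-1895 overlapped, with a Hy3 difference of -0.03 that was 0.07 with arrays centred on their median. For miR-3069-3p, whose locus lies within the small RNA gene Scarna13 and the noncoding gene Snhg10 on chromosome 12, the ratio was 0.05, 0.03, -0.04 and 0.04 in fear conditioned mice, against 0.24, 0.40, 0.13 and 0.10 in home cage mice. Its ratio difference was -0.20 (SE 0.070, limma adjusted p = 0.591), while the Hy3 means of the groups were both 7.68. Of the 77 members detected on all 8 arrays, 36 had a difference of the same sign in both readouts and 41 of opposite sign. This count used the scaling reported here, and none was made over all mouse probes. The median Hy3 difference was -0.026 in these members and -0.028 in all mouse probes so detected. In the ratio these medians were 0.038 and 0.041. Over the 480 mouse probes so detected, each array's deviations from the 8-array mean correlated between the readouts at 0.34 to 0.74.

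The let-7 look-alike miR-1961 read 7.11, 7.13, 7.04 and 7.32 in fear conditioned mice, against 6.91, 7.08, 7.10 and 7.09 in home cage mice, with overlapping groups and a difference of 0.11 (SE 0.067, limma adjusted p = 0.470). Its probe was lowest in home cage mouse 1. The probe of let-7i was lowest there too, at 9.51, against 10.16 to 10.49 on the other arrays. Those of let-7a, let-7c, let-7d, let-7e and let-7f were also lowest there. That of let-7b was lowest in fear conditioned mouse 1 instead, and that of let-7g was highest in home cage mouse 1, at 11.18. How much let-7 the miR-1961 probe reads was not tested.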

How the data were processed

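The authors deposited 1 scanner file per array with spot intensity and local background intensity in 1 channel, per the file headers. Its bright Hy3 landmark spots mark it as Hy3. They also deposited a table of log ratios, taken here as log2 of sample over a Hy5-labelled pool of the animals' RNA (500 ng each, per the labels), for which the sources used here give neither log base, direction nor scaling. Background was corrected by normexp with offset 50. Spots of poor shape or with background above signal were left out, arrays were quantile normalized over 10488 capture spots, and the spots of a probe were averaged as log2. Detection was judged before scaling. The offset makes differences of dim probes too small. Groups (4 and 4 mice) were compared with limma 3.58.1 under R 4.3.3 over all 1034 mouse probes, in a fit tested on simulated data, and no value was imputed. A probe missing on an array was fitted on the rest. Sequences came from RefSeq, and figures from matplotlib 3.10.9.

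Members, lists and tests were chosen with earlier results of these data known. Named members were those that passed, the 10 brightest, up to 5 each way in Hy3 and 3 each way in the ratio by smallest p among detected members with non-overlapping groups, the 3 most variable, 3 on each side of the detection limit, and the members of 5 lists (Dlk1-Dio3 region, Htr2c introns, other routes, Dgcr8 transcript, brain-expressed). Further miRNAs with a shared sequence (miR-1961, miR-2861, miR-3091-3p) and miR-1843 were named after their values were seen. Alternatives changed the offset, background subtraction, scaling, flags, filter, weights, block, detection limit and arrays. 5 member probes carry several names.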

Additional observations from a re-analysis of the deposited data

Results flagged for a closer look

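Of 126 groups of 4 arrays examined over the named members, 7 held 1 array set far from the other 3 by Dixon's test at the 95% level, and chance gives about 1 in 20. In the Hy3 signal, fear conditioned mouse 4 was low for miR-1937a, at 14.22 against 14.51 to 14.55 in the other fear conditioned mice, and high for miR-1939, at 10.82 against 10.25 to 10.26. Home cage mouse 1 was high for miR-1186b, at 9.91 against 9.39 to 9.44 in the other home cage mice, and low for miR-1939, at 9.73 against 10.62 to 10.77. In the deposited log ratio, fear conditioned mouse 2 was low for miR-1957, at -0.014 against 0.062 to 0.077, and fear conditioned mouse 4 was high for miR-3066, at 0.29 against -0.025 to -0.0012. Home cage mouse 1 was low for miR-1188*, at -0.0084 against 0.27 to 0.30 in the other home cage mice. Home cage mouse 1 is also the array with the most spots whose background exceeded the signal (508). The part of that in these values was not tested.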

How the results depend on the processing

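The number of members called in Hy3 was 1 in the reported fit and also with offset 10, with flagged spots kept and among probes detected on at least 4 arrays, each time miR-1900. It was 0 without background subtraction, with median centring, with spike-in centring and with the replicate block, and 2 with array weights (miR-1900 and miR-3072). It ranged from 0 to 1 over the fits that left out 1 array, with 1 without home cage mouse 3 or fear conditioned mouse 4. With the replicate block the lowest adjusted p was 0.358 in Hy3 and 0.714 in the ratio. Same-numbered arrays did not deviate together (correlations of -0.073, -0.026, -0.53 and -0.0034), while differently numbered ones ran from -0.26 to 0.44. These values cannot show whether the numbers pair the mice, since each deviation is taken from a mean of only 4 arrays. The ratio gave 0 members in every fit, and without home cage mouse 1 its lowest adjusted p was 0.0915, against 0.584 with all arrays. The share detected was 40.5% with the 99th percentile and 39.7% with the highest negative control spot as the limit. The gap of medians was -0.38 with offset 10 and -0.24 without background subtraction. No member probe carried its mouse name after another species' name, so that alternative gave no value. The cause of these changes was not tested.

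Differences that turned sign were not past the threshold in any of these fits. With offset 10 the Hy3 difference was 0.013 for miR-1839-3p and 0.047 for miR-3069-3p. With flagged spots kept the Hy3 difference was 0.0012 for miR-1839-3p and 0.033 for miR-3069-3p. Without background subtraction the Hy3 difference was 0.021 for miR-1188*, 0.0095 for miR-1224, 0.049 for miR-1247, 0.013 for miR-1839-5p and 0.043 for miR-1895. With median centring the Hy3 difference was 0.0032 for miR-1247, 0.034 for miR-1298*, 0.16 for miR-1839-3p, 0.11 for miR-1839-5p, 0.073 for miR-1895, 0.24 for miR-1897-5p, 0.24 for the probe of miR-1937a and miR-1937b, 0.23 for miR-1939, 0.22 for miR-1944, 0.038 for miR-1952, 0.21 for miR-3069-3p and 0.025 for miR-3102. With spike-in centring the Hy3 difference was 0.085 for miR-1839-3p, 0.034 for miR-1839-5p, 0.0021 for miR-1895, 0.17 for miR-1897-5p, 0.16 for the probe of miR-1937a and miR-1937b, 0.16 for miR-1939, 0.15 for miR-1944, 0.14 for miR-3069-3p and -0.043 for miR-3081*. With median centring the ratio difference was -0.0024 for miR-1939 and -0.015 for miR-1952.

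Leaving out 1 array turned further signs. The Hy3 difference ranged from -0.048 to 0.0045 for miR-1188*, from -0.091 to 0.00092 for miR-1224, from -0.11 to 0.024 for miR-1839-3p, from -0.046 to 0.0058 for miR-1895, from -0.023 to 0.11 for miR-1937a, from -0.28 to 0.060 for miR-1939 and from -0.060 to 0.038 for miR-3069-3p. The ratio difference ranged from -0.036 to 0.067 for miR-1188*, from -0.017 to 0.093 for miR-1192, from -0.035 to 0.18 for miR-1264-3p, from -0.071 to 0.019 for miR-1274a, from -0.066 to 0.58 for miR-1298, from -0.040 to 0.19 for miR-1298*, from -0.042 to 0.099 for miR-1939, from -0.015 to 0.026 for miR-1952, from -0.056 to 0.028 for miR-2145 and from -0.0037 to 0.055 for miR-3081*.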
